A study of Mus musculus with 4 samples.

Results

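The 38 interferon-stimulated genes described here are a list of symbols read as rows of 2 single-cell RNA files, among 18894 genes that either file lists. All 38 are listed in the tumor file and 36 in the blood file, where Mx1 and Mx2 are not. The cells are neutrophils of FVB mice, an inbred strain, given no treatment other than an injection of Py7160 cells, a mouse mammary tumor line, and killed after 2 to 3 weeks at a tumor diameter of about 1 cm. The same 3 mice gave tumor and blood, so every blood sample also comes from a mouse with a tumor, and no tumor-free mouse is among the groups. Tumors were broken up with enzymes and blood was cleared of red cells. Neutrophils were then enriched by Ly6G, marked by mouse with a hashtag antibody, joined within a tissue, sorted as CD11b+ Ly6G+ cells and run as 1 Drop-seq library per tissue. Tissue, library and the way the cells were released cannot be told apart, and each p-value measures the spread between 3 mice within a library.

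Interferons are secreted signals of infection and tissue stress. Type I interferons bind the receptor pair Ifnar1 and Ifnar2, and the kinases Jak1 and Tyk2 then activate transcription factors, among them Stat2, which joins Irf9 to bind the interferon-stimulated response element in the promoters of target genes. Interferon gamma binds Ifngr1 and Ifngr2 and acts mainly through the gamma-activated site. The targets block viral entry, translation and replication, present antigen, or feed back on the pathway, and neutrophils in blood and tumors are known to include cells that carry many of them.

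Barcodes with at least 200 detected genes and at most 15% mitochondrial UMIs (unique molecules) were kept, and a barcode was given to a mouse where 1 hashtag held at least 70% of its hashtag counts. This left 841 tumor cells (106, 564 and 171 in mice 1, 2 and 3) with 572844 UMIs and 1375 blood cells (511, 456 and 408) with 1147068 UMIs. The median per cell was 570 to 586 UMIs in the tumor mice and 648 to 671 in the blood mice. No assigned barcode occurred in both tissues. All 10 neutrophil markers were detected in both. Summed, they stood at 78669, 82386 and 67849 CPM (UMIs of a gene per 1e6 UMIs of the cells) in tumor mice 1, 2 and 3. The blood mice held more of them, at 207102, 209828 and 181549 CPM. Erythroid markers were at 0 in tumor cells and at 13960 to 22154 CPM in the blood mice. Of the tumor cells, 50 held several macrophage or MHC class II transcripts (3, 41 and 6 by mouse), against 11 blood cells. The summed monocyte and macrophage markers stood at 722, 2403 and 2601 CPM in tumor mice 1, 2 and 3, with 11 of 11 detected, and at 272, 313 and 351 CPM in the blood mice, with 4 of 11 detected and C1qa, C1qb, C1qc and Mrc1 at 0. The summed markers of dendritic cells or MHC class II stood at 156, 2854 and 2636 CPM in the tumor mice and 36.6, 105 and 139 CPM in the blood mice. Leaving those 50 and 11 cells out was 1 of 17 alternatives and kept the calls of Isg15, Rsad2 and all 8 members that fell. Tumor mouse 2 stands apart: of its 564 cells, another way of reading hashtags (HTODemux) gave 235 to that mouse, 230 to none and 63 to doublets. Levels over all cells are therefore given by mouse for the called members, and it is said where calls change without that mouse. Levels in chosen groups of cells are mostly pooled over the mice. They were not taken again without mouse 2.

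Interferon-stimulated genes moved both ways between the tissues. Of the 24 members with enough counts to test, 5 rose in tumor (20.8%) and 8 fell (33.3%), beside 30.2% of all 3674 tested genes that rose and 29.8% that fell (edgeR, adjusted p under 0.05). The share of members that rose was below that of all tested genes and the share that fell close to it. With 24 members these shares rest on few genes, and the gap was not tested. In a fit without the count filter, 5 of the 37 members with UMIs were called higher and 10 lower. Of all 16032 genes in that fit, 12358 of them below the filter, 7.69% were called higher and 8.71% lower. The median log2 fold change of the 24 tested members was −0.06, beside −0.04 over all tested genes. The antiviral enzyme Rsad2, the ubiquitin-like protein Isg15, the GTPase Ifi47, the exonuclease Isg20 and Slfn2 rose. All 4 interferon-induced transmembrane genes (Ifitm1, Ifitm2, Ifitm3 and Ifitm6), Slfn1, Trim30a, Oasl2 and Gbp7 fell. The remaining 14 members had 0 to 49 UMIs in both tissues together and are described apart. In sums over cells, fewer cells that carry a transcript and less of it per cell cannot be told apart, which is why the spread over cells follows further on.

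**Figure D1:**
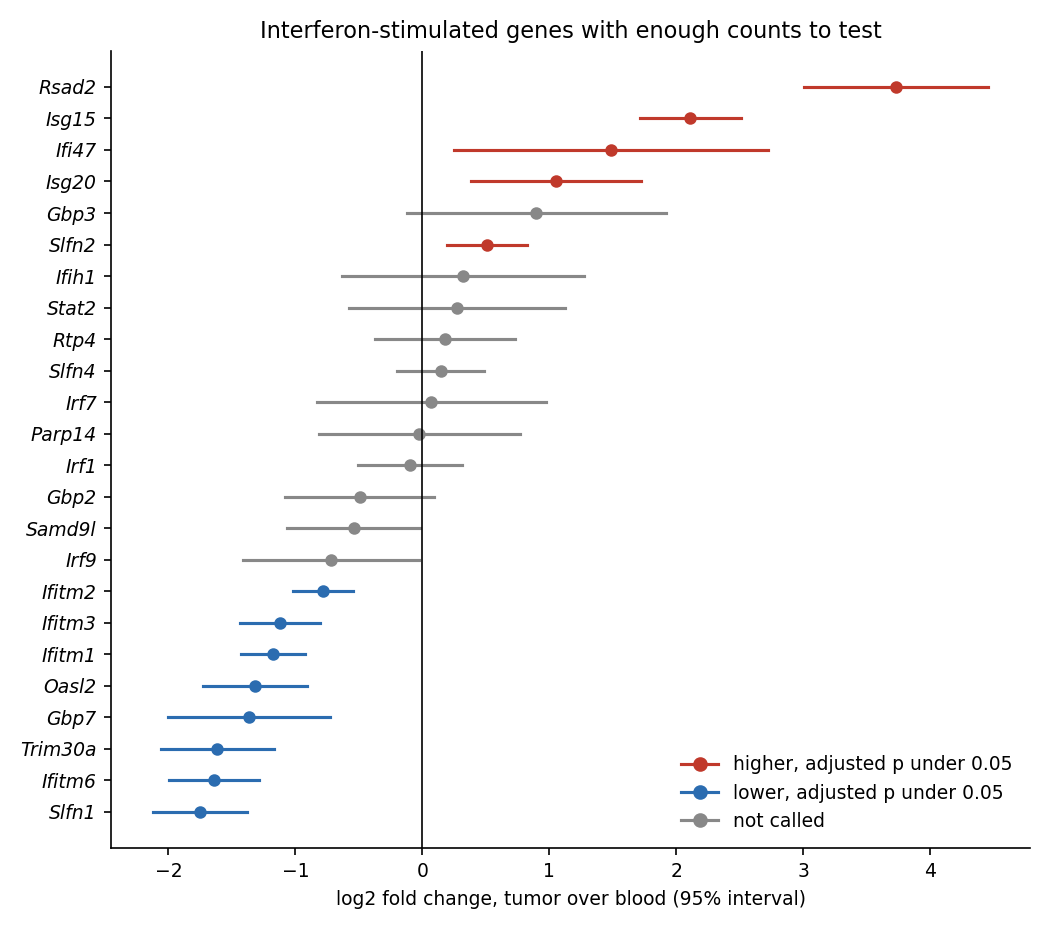
Log2 fold change of tumor over blood (horizontal axis) for each of the 24 members tested, with points for the estimate and lines for the 95% interval of the edgeR fit on 3 tumor and 3 blood sums. Red marks the 5 members that rose, blue the 8 that fell and gray the 11 that were not called. Rsad2 stands farthest to the right at 3.73 and Slfn1 farthest to the left at −1.75.

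The motif that the type I pathway acts through was found before some members that rose and some that fell. RefSeq promoters (GRCm38.p6, 250 bases before to 50 after the annotated start) were at hand for 32 of the 38 members. The core of the interferon-stimulated response element, searched on either strand as GAAA, any 2 bases and GAAA again (or TTTC, any 2 bases and TTTC), occurred in 15 of the 32 (46.9%), against 3.99% of 27025 genes with such a promoter and 4.75% of the tested genes that have one. It was present in 2 of 5 members that rose, 4 of 8 that fell and 4 of 9 with a promoter that were not called. The gamma-activated site, TTCNNNGAA, which reads alike on both strands, occurred in 7 of the 32 (21.9%) against 9.55% of all genes. Below are the 250 bases before the start of the 2 members that rose most and of 2 members that fell, picked after their values were seen because they hold the motif. Each reads 5′ to 3′ towards the gene and capitals mark the response element core, which overlaps itself in Isg15.
Isg15 (chr4:156200819-156201068, minus strand): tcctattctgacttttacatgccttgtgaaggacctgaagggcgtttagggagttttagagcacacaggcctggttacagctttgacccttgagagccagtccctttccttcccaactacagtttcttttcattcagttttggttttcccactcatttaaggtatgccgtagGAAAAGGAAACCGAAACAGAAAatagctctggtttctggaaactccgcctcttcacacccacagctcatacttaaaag
Rsad2 (chr12:26456453-26456702, minus strand): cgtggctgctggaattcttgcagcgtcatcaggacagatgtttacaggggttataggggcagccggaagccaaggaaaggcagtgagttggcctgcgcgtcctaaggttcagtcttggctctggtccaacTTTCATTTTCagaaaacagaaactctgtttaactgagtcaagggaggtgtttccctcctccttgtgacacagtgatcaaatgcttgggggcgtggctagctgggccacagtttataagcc
Trim30a (chr7:104465194-104465443, minus strand): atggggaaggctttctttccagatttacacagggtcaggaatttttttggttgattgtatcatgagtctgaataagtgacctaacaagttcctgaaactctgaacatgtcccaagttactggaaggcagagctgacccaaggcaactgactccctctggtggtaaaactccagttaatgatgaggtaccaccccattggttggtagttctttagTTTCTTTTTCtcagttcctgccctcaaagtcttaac
Ifitm2 (chr7:140955962-140956211, minus strand): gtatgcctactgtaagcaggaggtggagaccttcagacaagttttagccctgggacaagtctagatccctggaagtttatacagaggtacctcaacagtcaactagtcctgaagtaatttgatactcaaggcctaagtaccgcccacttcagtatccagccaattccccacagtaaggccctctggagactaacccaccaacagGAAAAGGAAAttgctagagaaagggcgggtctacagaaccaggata
The match begins at −120 from the start in Rsad2, at −78 to −66 in Isg15, at −36 in Trim30a and at −46 in Ifitm2. A match is a description of these letters and not a measured binding site.

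Among the effectors, Rsad2 (viperin, an enzyme that makes a chain-terminating nucleotide; chr12:26442746-26456452, minus strand) stood at 166, 506 and 687 CPM in tumor mice 1, 2 and 3 and at 30.1, 47.4 and 32.7 CPM in blood mice 1, 2 and 3. Every tumor mouse lay above every blood mouse, with a wide spread in tumor, lowest in mouse 1. The log2 fold change was 3.73 (SE 0.34, edgeR adjusted p = 7.26e-08). Isg15 (chr4:156199424-156200818, minus strand), which is joined to other proteins much as ubiquitin is, stood at 372, 455 and 558 CPM in tumor and 104, 103 and 122 CPM in blood. Here too the tissues did not overlap, and the tumor mice lay closer together than for Rsad2. Its log2 fold change was 2.11 (SE 0.19, edgeR adjusted p = 4.79e-08). Both calls held under each of the 17 alternatives run, at 3.40 to 3.98 for Rsad2 and 1.73 to 2.22 for Isg15.

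Isg20, an exonuclease that degrades viral RNA, stood at 27.6, 153 and 146 CPM in tumor and 67.2, 57.9 and 65.3 CPM in blood. Tumor mice 2 and 3 lay above the blood mice and tumor mouse 1, with 2 UMIs, below them. The log2 fold change of 1.05 (SE 0.32, edgeR adjusted p = 0.00892) lost its call in 6 of 17 alternatives, among them DESeq2 and the fit without tumor mouse 2. Trim30a, a ubiquitin ligase of the tripartite motif family (chr7:104409025-104465193, minus strand), went the other way, from 431, 384 and 493 CPM in blood to 69.0, 158 and 146 CPM in tumor. Every tumor mouse lay far below every blood mouse. The log2 fold change was −1.61 (SE 0.21, edgeR adjusted p = 4.69e-06). Its neighbors Trim30b, Trim30c and Trim30d are close copies, and how reads shared among them were counted is not given in the sources used here. Of the other effectors tested, Rtp4, Parp14 and Samd9l were not called. Their log2 fold changes were 0.18, −0.02 and −0.54 (edgeR adjusted p = 0.577, 0.962 and 0.0702), and Samd9l was called lower in 5 of 17 alternatives.

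The IFITM genes, small membrane proteins that hinder the entry of viruses and lie together on chromosome 7, fell as a family. Ifitm1 stood at 5303, 4758 and 5363 CPM in blood mice 1, 2 and 3 and at 2579.5, 1995 and 2266 CPM in the tumor mice, a log2 fold change of −1.18 (SE 0.12, edgeR adjusted p = 2.26e-07). For Ifitm2 the levels were 2973, 2987 and 3204 CPM in blood and 1766, 1797 and 1716 CPM in tumor, and the log2 fold change was −0.78 (SE 0.11, edgeR adjusted p = 1.35e-05). The tumor mice hardly differed from each other for Ifitm2, and none reached the blood mice for either gene. Ifitm3 was at 1033, 1116 and 1155 CPM in blood and 372, 557 and 506 CPM in tumor, a log2 fold change of −1.12 (SE 0.15, edgeR adjusted p = 6.12e-06). Ifitm6, another member of the family, was at 1973, 1771 and 1636 CPM in blood and 552, 693 and 395 CPM in tumor, a log2 fold change of −1.64 (SE 0.17, edgeR adjusted p = 2.95e-07). For all 4 genes the tissues did not overlap, and the call held in each of the 17 alternatives. The members of this family are near-identical in part, so reads may have been split among them or dropped.

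The Schlafen genes, a cluster on chromosome 11 with roles in the growth of blood cells and in RNA cleavage, split. Slfn1 fell from 716, 832 and 668 CPM in blood to 221, 187 and 275 CPM in tumor, with no overlap and a log2 fold change of −1.75 (SE 0.18, edgeR adjusted p = 2.16e-07). Slfn2, needed for the quiescence of T cells and monocytes, was higher in each tumor mouse (2235, 1912 and 3021 CPM) than in any blood mouse (1751, 1782 and 1509 CPM). Its increase was small next to that of Isg15, at 0.51 (SE 0.15, edgeR adjusted p = 0.00772) on the log2 scale, and lost its call in 5 of 17 alternatives, including the fits without tumor mouse 3, blood mouse 1 or blood mouse 3. Slfn4 overlapped between the tissues at 345, 552 and 481 CPM in tumor and 482, 439 and 409.8 CPM in blood, a log2 fold change of 0.14 (SE 0.16, edgeR adjusted p = 0.473). Slfn5 had too few counts to test.

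Of the interferon-induced GTPases, which gather on membranes around microbes, Gbp7 fell and Ifi47 rose. Gbp7 was at 123, 158 and 208 CPM in blood and 27.6, 69.6 and 60.1 CPM in tumor, without overlap, a log2 fold change of −1.37 (SE 0.30, edgeR adjusted p = 8.82e-04). Ifi47 rested on 21 tumor and 15 blood UMIs, with 27.6, 42.8 and 25.7 CPM in tumor and 2.32, 28.9 and 8.91 CPM in blood. Blood mouse 2 lay among the tumor mice, and the log2 fold change of 1.49 (SE 0.59, edgeR adjusted p = 0.0373) lost its call in 6 of the 9 alternatives in which Ifi47 could be tested. Gbp2 at −0.50 and Gbp3 at 0.90 were not called (edgeR adjusted p = 0.135 and 0.121), although Gbp2 was called lower in 3 of 17 alternatives and Gbp3 higher in 1 of 12. The 2′-5′ oligoadenylate synthetase-like gene Oasl2, on chromosome 5, fell from 391, 408 and 451 CPM in blood to 221, 171 and 112 CPM in tumor. No tumor mouse reached the blood mice, and the log2 fold change was −1.32 (SE 0.19, edgeR adjusted p = 1.88e-05).

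The members that carry or control the signal were not called in either direction. Irf1, a transcription factor that interferon gamma induces, was at 262, 236 and 266 CPM in tumor and 296, 205 and 306 CPM in blood, and its log2 fold change was −0.10 (95% interval −0.51 to 0.31). Irf7, which amplifies the type I response, had 18 tumor and 35 blood UMIs and a log2 fold change of 0.07 (−0.83 to 0.98). Stat2 was at 0.27 (−0.58 to 1.12) and the RNA sensor Ifih1 at 0.32 (−0.64 to 1.27). The intervals of these scarce genes are wide, and a missed call does not show that their levels are alike. For Irf9, the DNA-binding partner of Stat2, every tumor mouse lay below every blood mouse (55.2, 42.8 and 34.3 against 64.8, 73.7 and 77.2 CPM) at a log2 fold change of −0.72 (SE 0.33, edgeR adjusted p = 0.0676). It was called lower in 4 of 17 alternatives. Over the 24 tested members, tumor and blood mice were fully apart for 3 that were higher and 9 that were lower in tumor (12.5% and 37.5%), beside 29.9% and 32.9% of all tested genes.

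**Figure D2:**
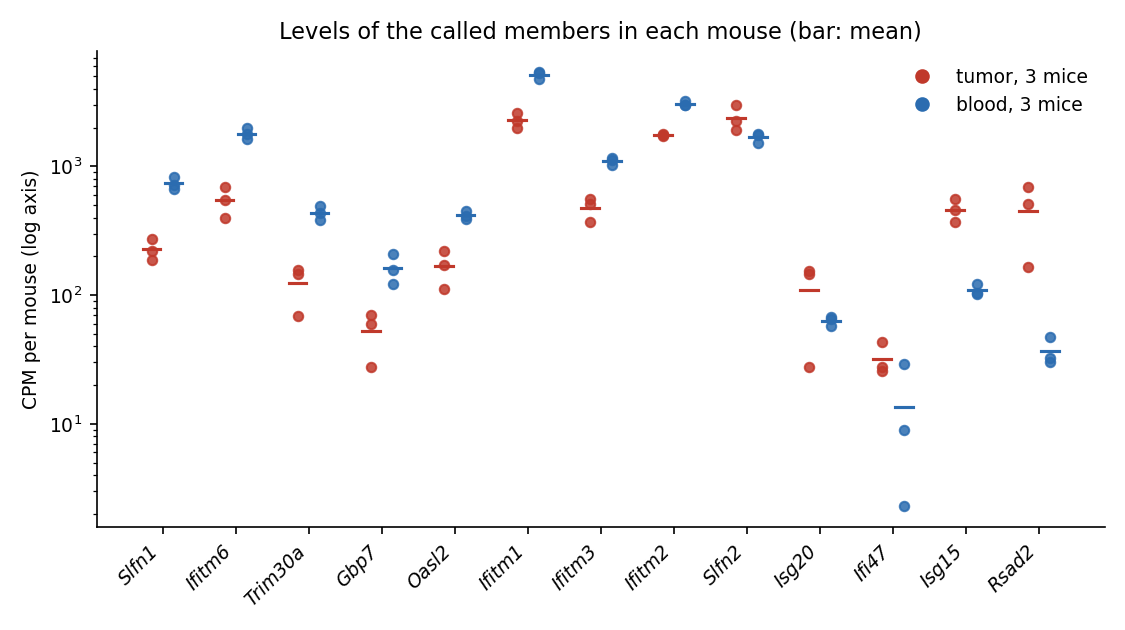
Levels in CPM (vertical log axis) of the 13 members that rose or fell, 1 point per mouse in tumor (red, 3 mice) and blood (blue, 3 mice), with a bar at the mean. The points of the tissues are apart for all 8 members that fell and for Slfn2, Isg15 and Rsad2, and overlap for Isg20 and Ifi47.

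The 14 members below the test's count filter leaned to the tumor side. In a fit without that filter, 12 had a positive and 1 a negative log2 fold change, and Mx1 had 0 UMIs in both tissues. Of all 12358 genes below the filter, 48.6% had a positive value, with a median of −0.10. Ifit2, Oasl1 and Bst2 were called higher in that fit, in which 7.69% of 16032 genes were called higher and 8.71% lower. Those 16032 include the 3674 genes with enough counts to test. The share called among the 12358 below the filter alone was not taken. Ifit2, an RNA-binding inhibitor of translation, had 1.00, 12.0 and 3.00 UMIs in tumor mice 1, 2 and 3 and 1 UMI in blood, a ratio of 32.0 with an exact 95% interval of 4.98 to 1344, which covers counting error only. Of its 16 tumor UMIs, 11 came from 1 cell. Oasl1, which restrains Irf7, had 15 tumor and 5 blood UMIs. The tethering protein Bst2, which holds budding viruses at the cell surface, had 14 and 4, with no UMI in tumor mouse 1. Mx2, which GENCODE lists as a polymorphic pseudogene, had 5 UMIs in tumor and 0 in blood. That is at least 3.34-fold higher in tumor against a floor of 3 counts over the summed blood mice. All 15 tumor UMIs of Ifit1 came from mouse 2. For Usp18, Zbp1, Oas3, Cmpk2, Herc6, Xaf1, Ifit3 and Slfn5, tumor and blood held 13 and 9, 11 and 12, 16 and 18, 10 and 8, 6 and 5, 6 and 7, 2 and 4, and 28 and 21 UMIs. None of these genes was called in the fit without the filter. Slfn5 was called higher in the fits without tumor mouse 3, blood mouse 1 or blood mouse 3. At this depth a missed call does not show that the levels are alike.

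Whether a member's UMIs were spread over the cells or gathered in few was measured in 2 ways, both without a test since cells are not replicates. The first is the number of cells with a UMI over the number expected if the UMIs fell on cells in proportion to their depth. The second, called the pair index here, is the number of UMI pairs that share a cell over the number so expected, where 1 means in proportion to depth. Over all genes with at least 20 UMIs, the median ratio of cells was 0.889 in tumor and 0.938 in blood, and the median pair index was 3.35 and 2.65. Where UMIs gather, the ratio of cells falls as a gene's UMIs grow in number. Genes were not matched by UMI count, so ratios and ranks of abundant and scarce genes are unlike.

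Rsad2 and Isg15 gathered in few tumor cells. The 281 tumor UMIs of Rsad2 lay in 96 cells where depth predicts 228, a ratio of 0.420 (0.620, 0.411 and 0.430 in mice 1, 2 and 3) and a pair index of 11.7. A lower ratio was found in 1.13% of tumor genes, not matched by UMI count, and a higher pair index in 8.65%. As many as 28 cells held 3 or more, against 7.78 expected, and 10 cells held 38.4% of them. The 262 UMIs of Isg15 lay in 131 cells against 216 expected (ratio 0.607, pair index 5.76, with 25.9% of tumor genes above it), and 31 cells held 3 or more against 6.59 expected. In blood the ratio was 0.730 for Rsad2, on 42 UMIs with a pair index of 21.3, and 0.888 for Isg15, on 125. With fewer UMIs in blood, these ratios do not show that either gene gathers more in tumor, and for Rsad2 the pair index was higher in blood. In every mouse Rsad2 stood below the median ratio of its tissue's genes, and so did Isg15 in every tumor mouse. Gbp2 (ratio 0.553, 104 UMIs) and Slfn4 (0.628, 287 UMIs) also gathered in tumor, although neither was called between the tissues. By the pair index, Ifi47 at 45.6 and Ifih1 at 44.99 stood highest among members with at least 20 tumor UMIs, on 21 and 23 UMIs. The most widespread members were Slfn2, Ifitm1 and Ifitm2, with a UMI in 56.0%, 45.3% and 45.1% of tumor cells and 63.5%, 81.0% and 81.2% of blood cells. Their pair indices lay between 1.04 and 2.34, below the median of all genes in either tissue.

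**Figure D3:**
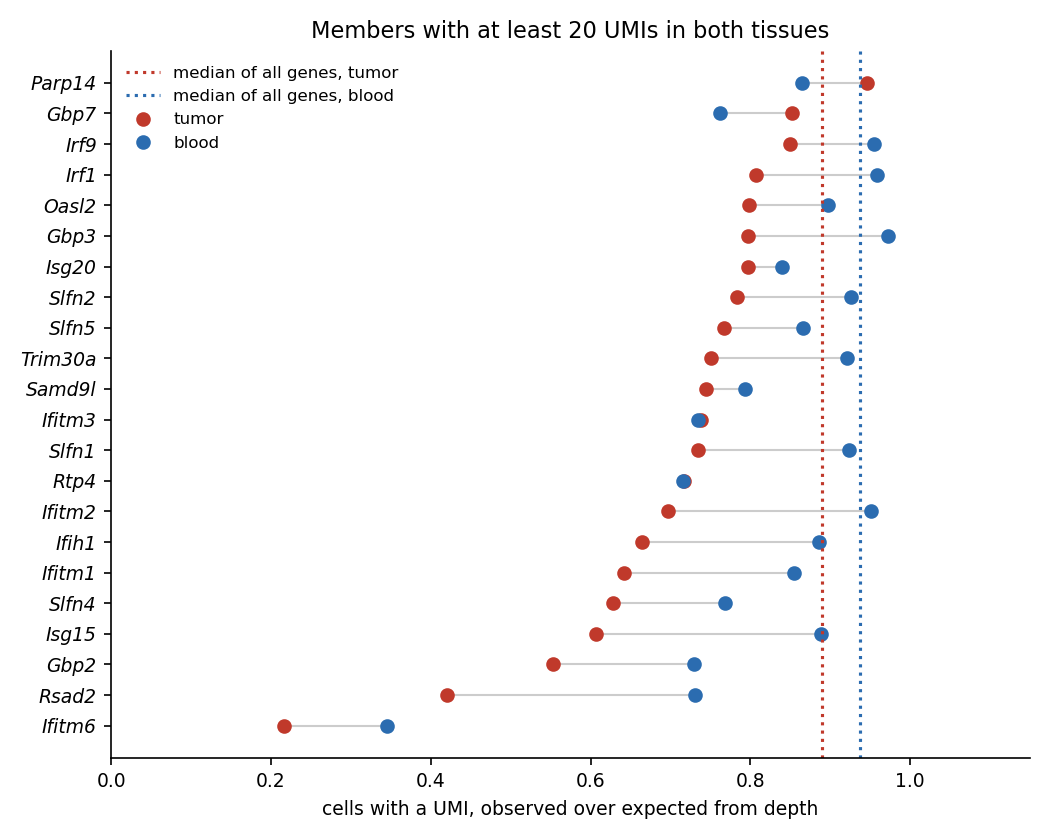
Cells with a UMI over the number expected from depth (horizontal axis, 1 is in proportion to depth) for the 22 members with at least 20 UMIs in both tissues, in tumor (red) and blood (blue), with dotted lines at the median of all genes in each tissue. Ifitm6 and Rsad2 lie farthest to the left in tumor, at 0.216 and 0.420.

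To see whether the gathered UMIs of different members fall in the same cells, 18 members known as targets of type I interferon were summed per cell: Isg15, Rsad2, Ifit1, Ifit2, Ifit3, Oasl1, Oasl2, Oas3, Mx1, Mx2, Cmpk2, Usp18, Irf7, Herc6, Rtp4, Zbp1, Ifih1 and Xaf1, called the core below. The 841 tumor cells held 852 core UMIs and the 1375 blood cells 900. In tumor, 583 cells had none where depth predicts 343, and 26 cells had 8 or more where it predicts 1.84. In blood 855 cells had none against 768 expected, and 5 had 8 or more against 0.535. Both tissues thus had more cells without a core UMI and more cells with many than depth alone gives. The median gene also gathers more than depth gives, with a pair index of 3.35 in tumor and 2.65 in blood. No other set of genes was summed in this way. At the lower limit of 3 UMIs tumor lay below the number expected, with 69 cells against 81.2. Blood lay above it, with 75 cells against 61.4. By mouse, tumor had 8, 46 and 15 such cells against 3.53, 56.2 and 22.4 expected, so mouse 1 alone lay above. Isg15 and Rsad2 made up 63.7% of the core UMIs in tumor and 18.6% in blood. Of the other 16 core members, 3 or more UMIs were found in 25 tumor cells against 9.70 expected and in 58 blood cells against 40.3. The limit of 8 was chosen after the counts were seen. The 26 tumor cells came from all 3 mice (2, 18 and 6), held 48.8% of the core UMIs and had a median depth of 596 UMIs, close to that of other tumor cells. The 5% of tumor cells with the most core UMIs for their depth held 43.9%, 59.7% and 56.2% of them in mice 1, 2 and 3, against 28.8%, 34.3% and 26.2% in the blood mice. The lowest tumor mouse lay above the highest blood mouse.

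**Figure D4:**
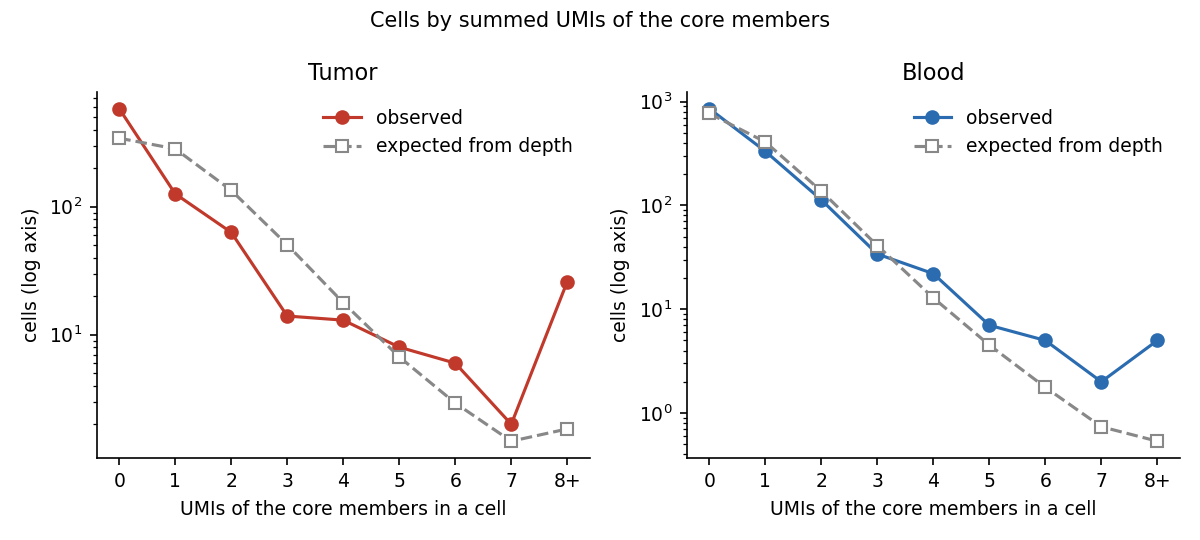
Number of cells (vertical log axis) by summed UMIs of the 18 core members in a cell (horizontal axis; the last point is 8 or more) in tumor and blood. Filled circles are the observed cells and open squares the number expected if UMIs fell on cells in proportion to depth. In tumor, 26 cells stand at 8 or more against 1.84 expected, and in blood 5 against 0.535.

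In makeup, these 26 cells were led by Rsad2 and Isg15. A cell held 2 to 12 different core members with a median of 4, and 8 to 42 core UMIs with a median of 12.5. Rsad2 was found in 24 of them, Isg15 in 24, Rtp4 in 15, Oasl2 in 14, Usp18 in 7, Oasl1 in 7 and Cmpk2 in 7. Of their 416 core UMIs, 268 were of Rsad2 and Isg15. They held 15 of the 16 tumor UMIs of Ifit2 and 13 of the 15 of Ifit1, but 5 of the 16 of Oas3, 5 of the 18 of Irf7 and 0 of the 6 of Xaf1. A core member's own UMIs help to choose these cells, so the shares are a description. Only 1 of the 26 held several macrophage or MHC class II transcripts. By HTODemux, 12 were single cells of a mouse, 9 had no call and 5 were doublets.

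For a view in which a member does not help to choose its own cells, each member was compared between cells with at least 3 UMIs of the other core members and the remaining cells. In tumor the level was 4091 against 193 CPM for Rsad2, 3188 against 294 for Isg15 and 855 against 32.5 for Rtp4. At least 3 core UMIs were found in 69 tumor cells, 46 of them from mouse 2. Fewer cells were chosen for Rsad2, Isg15 and Rtp4, whose own UMIs were not counted. All values are pooled over the mice. The full 69 cells also held more of members outside the core: Isg20 at 663 against 80.5 CPM, Ifi47 at 293 against 11.5, Slfn4 at 2087 against 345 and Parp14 at 293 against 23.0. Of the 23 members with at least 20 tumor UMIs, 17 were denser in such cells with counting intervals apart. Ifitm6 was sparser, and the intervals overlapped for Gbp7, Ifitm1, Ifitm2, Irf1 and Irf9. The share of all genes with intervals apart was not taken. Counting intervals are too narrow where UMIs gather, and the median pair index of tumor genes was 3.35. The count of members is therefore a description only. Trim30a and Oasl2, which fell over all cells, stood at 722 CPM (95% counting interval 508 to 995) and 801 CPM (558 to 1113) in the tumor cells chosen for each. In the other tumor cells Trim30a and Oasl2 were at 84.4 and 109.6 CPM. All blood cells together held 434 and 415 CPM, but they were not chosen by core UMIs, so the groups are unlike. Blood cells chosen in the same way are not given for these genes. Ifitm1 and Ifitm2 stood at 2223 against 2075 and 1560.2 against 1762 CPM. In blood the same comparison gave 101 against 31.8 CPM for Rsad2, 291 against 96.7 for Isg15 and 439 against 73.8 for Rtp4. The 75 blood cells with at least 3 core UMIs, no member left out, were deeper than the rest (median 1034 against 642 UMIs). The 69 such tumor cells were not far from the rest (616 against 568). Erythroid markers stood at 48236 CPM in these 75 blood cells against 14102 CPM in the other blood cells, and their part in the comparison was not tested.

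**Figure D5:**
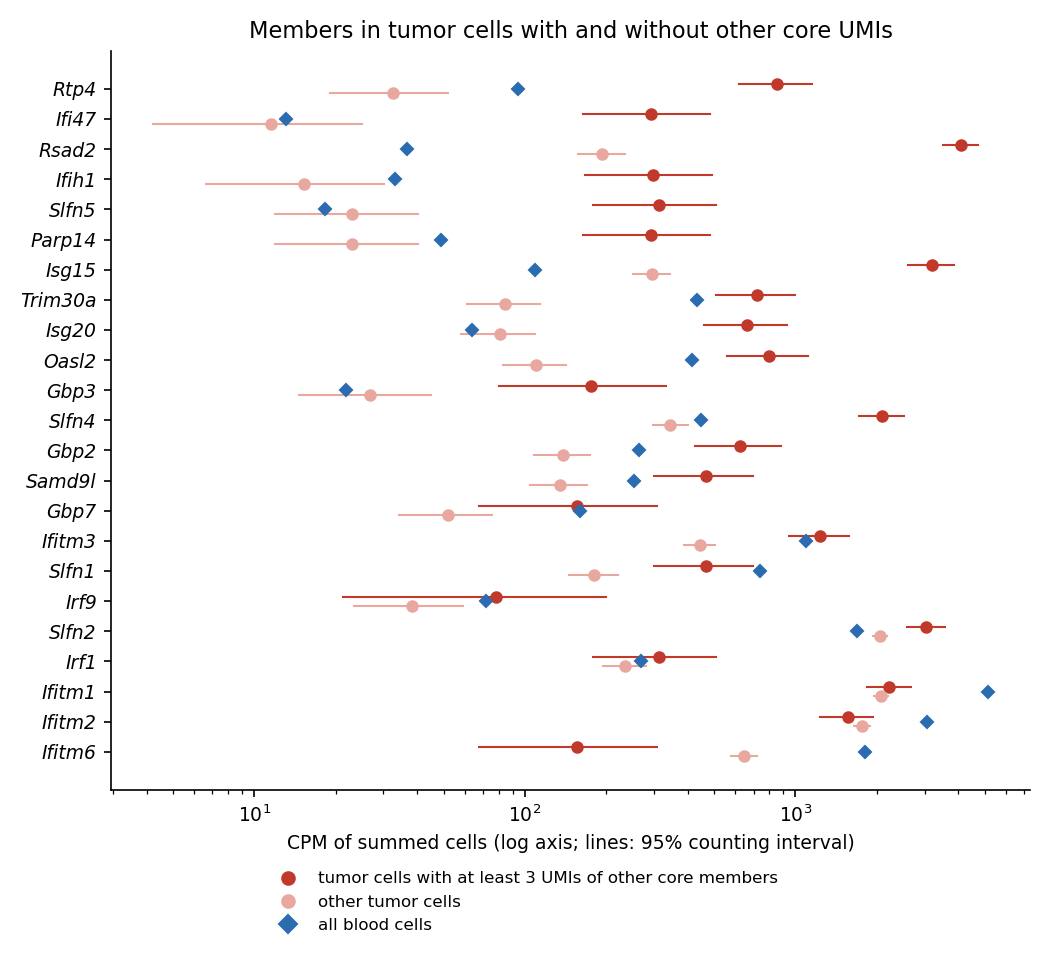
CPM of summed cells (horizontal log axis) for members with at least 20 tumor UMIs, in tumor cells with at least 3 UMIs of the other core members (dark red), in the other tumor cells (light red) and in all blood cells (blue diamonds). Lines are 95% intervals of counting error. Rtp4, Ifi47 and Rsad2 at the top differ most between the tumor cells, and Ifitm1 and Ifitm2 hardly differ.

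Isg15 and Rsad2 also differed between the tissues outside these cells. In the tumor cells with fewer than 3 UMIs of the other core members, Isg15 was at 307, 259.7 and 399.7 CPM in mice 1, 2 and 3, against 92.8, 83.0 and 118 CPM in the blood mice. Rsad2 was at 106, 175 and 304 CPM in such tumor cells and 19.8, 44.5 and 33.0 CPM in such blood cells. Both genes stayed higher in every tumor mouse than in any blood mouse. Trim30a in the same remaining cells was at 62.4, 71.2 and 141 CPM in tumor and 407, 385 and 501 CPM in blood.

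Rsad2, unlike Isg15, was as dense outside tumor cells as in them. Barcodes with 20 to 60 UMIs, too few for a cell, held Rsad2 at 507 CPM in tumor, as much as the 491 CPM in cells, and at 324 CPM in blood, more than the 36.6 CPM in cells. For Isg15 they held 119 CPM against 457 CPM in tumor cells, and 24.3 against 109 CPM in blood cells. With cells reduced to 441 UMIs, leaving out 209 tumor and 254 blood cells that were shallower, Isg15 was found in 12.9% ± 1.41 of the remaining tumor cells and 4.60% ± 0.535 of blood cells (SD, n = 3 mice), where cells made up wholly of such free RNA would give 5.13% and 1.07%. For Rsad2 the shares were 9.10% ± 3.44 and 1.33% ± 0.225, below the free RNA value of 20.1% in tumor and 13.3% in blood. A share at or below the free RNA value cannot be told from background by this measure, so a single Rsad2 UMI does not mark a cell as expressing it. That value takes a cell as made up wholly of free RNA, which blood cells were not for Rsad2 (36.6 against 324 CPM). UMIs gathered in few cells also lower a share. Of the 24 tested members, 10 were at or below the free RNA value in tumor (Gbp7, Ifih1, Irf1, Irf9, Oasl2, Parp14, Rsad2, Slfn4, Stat2 and Trim30a) and 8 in blood (Ifih1, Irf9, Isg20, Oasl2, Parp14, Rsad2, Slfn4 and Stat2). The share of all tested genes at or below their free RNA value was not taken, so these counts show nothing particular to the members. The part of free RNA in the difference between the tissues was not tested. Before the reduction, 17.5% and 7.64% of cells held an Isg15 UMI and 11.0% and 2.18% an Rsad2 UMI. At equal depth Trim30a was found in 3.42% ± 2.10 of tumor and 17.6% ± 1.48 of blood cells, against 9.40% and 16.1% for free RNA, and Ifitm1 in 44.3% ± 4.39 and 73.6% ± 4.37, against 22.0% and 31.5%.

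By the ratio of cells, Ifitm6 gathered most among the members with at least 20 UMIs, in tumor and in blood. Its 345 tumor UMIs lay in 58 cells against 269 expected (ratio 0.216, pair index 26.7), and its 2076 blood UMIs in 335 cells against 972 expected (ratio 0.345, pair index 10.7). A lower ratio was found in 0.266% of tumor genes and 0.257% of blood genes, which were not matched by UMI count. Cells with at least 3 UMIs of Camp, Ngp and Ltf, which encode proteins of the granules that neutrophils fill while still immature, numbered 24 in tumor (1.89%, 3.19% and 2.34% of the cells of mice 1, 2 and 3) and 91 in blood (9.20%, 6.80% and 3.19%). These few cells held 79.1% of the tumor UMIs of Ifitm6 (77.5%, 79.2% and 80.4% by mouse) and 74.5% of the blood UMIs (81.6%, 71.3% and 67.5%), with 6.97% and 17.1% of all UMIs. Every one of the 91 such blood cells held Ifitm6, and 21 of the 24 in tumor. Its level in them was 6834 CPM in tumor and 7870.1 CPM in blood, against 135 and 557 CPM in the other cells. Without these cells, an alternative chosen after seeing the data, Ifitm6 still fell, by 2.00 on the log2 scale (edgeR adjusted p = 2.33e-08), and its ratio of cells moved to 0.543 in tumor and 0.586 in blood.

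Other members divided between the same groups of cells. Ifitm3, Slfn4 and Samd9l were denser in cells with the granule markers, at 1677, 1177 and 375 CPM against 426, 450.4 and 148 CPM in the other tumor cells. In blood the order was the same, at 2055, 900.5 and 407 CPM against 899.5, 353 and 221 CPM. Ifitm1 and Isg15 were sparser there: Ifitm1 stood at 150.2 against 2233 CPM in tumor and 1231 against 5957 CPM in blood, and 1 of the 262 tumor UMIs and 1 of the 125 blood UMIs of Isg15 lay in cells with granule markers. None of the 26 tumor cells with 8 or more core UMIs carried the granule markers, and 1 of the 5 such blood cells did. Slfn4, which was not called over all cells, was called higher in tumor once cells with granule markers were left out (log2 fold change 0.39, edgeR adjusted p = 0.0472). All 8 members that fell did so without these cells too.

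The rest of the pathway was read from a list of 134 further genes, of which 117 are listed in the files and 49 could be tested. In tumor 7 rose and 18 fell (14.3% and 36.7%; edgeR, adjusted p under 0.05), beside 30.2% and 29.8% of all tested genes, with a median log2 fold change of −0.32 beside −0.04 over all tested genes. The receptors divided by type. Both chains of the type I receptor rose: Ifnar1 from 99.6, 81.6 and 80.2 CPM in blood to 138, 185 and 163 CPM in tumor, a log2 fold change of 0.98 (SE 0.22, edgeR adjusted p = 0.00117). Ifnar2 went from 139, 86.8 and 131 to 207, 270.4 and 240.3 CPM, a log2 fold change of 1.09 (SE 0.22, edgeR adjusted p = 3.74e-04). Both chains of the interferon gamma receptor fell: Ifngr1 from 419, 397 and 481 to 69.0, 179 and 154 CPM, a log2 fold change of −1.46 (SE 0.21, edgeR adjusted p = 1.45e-05). Ifngr2 went from 227, 211 and 249 to 124, 107 and 77.2 CPM, a log2 fold change of −1.13 (SE 0.22, edgeR adjusted p = 2.52e-04). For each of these 4 genes all tumor mice lay on one side of all blood mice. Il10rb, shared by the receptors of interferon lambda and interleukin 10, rose by 1.26 (edgeR adjusted p = 1.86e-05), and the kinases Jak1 and Jak2 were not called, at 0.13 and −0.08.

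Socs3, a feedback inhibitor of cytokine receptors, fell by 0.80 on the log2 scale (edgeR adjusted p = 0.00177). Large falls on the list were also seen in Myd88 (−2.29), an adaptor of Toll-like receptors, Trim12c (−2.26), the phosphatase Ptpn6 (−1.97), the repressor Irf2 (−1.91), Ube2l6 (−1.72), which passes Isg15 to its targets, Trim30b (−1.68), the immunoproteasome subunit Psmb9 (−1.64) and Parp9 (−1.55). Besides the receptors, Cd274, the ligand PD-L1, rose from 13.9, 15.8 and 14.8 CPM to 731, 819 and 849.6 CPM, a log2 fold change of 5.74 (SE 0.22, edgeR adjusted p = 7.34e-13). The DNA sensor Aim2 rose by 1.89, the kinase Tbk1 by 1.61 and Gbp5 by 1.41 (edgeR adjusted p = 4.61e-05, 1.71e-04 and 0.0426).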

How the data were processed

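The authors deposited UMI counts per gene and barcode for 1 tumor and 1 blood Drop-seq library, and hashtag counts per barcode. STAR and the mm10 build are named in the submitters' processing notes, while neither the strand of counting nor the treatment of shared reads is stated in the sources used here. Cells were kept and given to mice as described above. UMIs were summed per mouse and tissue, 3 sums against 3, and tested over all genes with edgeR 4.0.16 (R 4.3.3; filterByExpr, TMM scaling, quasi-likelihood test, Benjamini-Hochberg adjustment, threshold 0.05). CPM of a gene by mouse are summed counts scaled to 1e6 after TMM scaling. CPM of marker lists, groups of cells and free RNA are plain shares of the UMIs, without TMM. Gathering over cells was described without a test. No doublet caller was run on the RNA: hashtags alone removed mixed barcodes. Mouse numbers are hashtag numbers, and whether a number is the same mouse in both tissues is not given in the sources used here.

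The members and lists were chosen with earlier results of these data known. Mouse values are given for each member called and for the 6 with the highest mean CPM, which were all called. Irf1, Irf9 and Slfn4 were added after their values were seen. Of the further pathway genes, the called ones with the largest changes and the receptors, kinases and Socs3 are named; 1 gene that the rule names is not reported here. The fit was tested on simulated data for tumor against blood over 3164 genes: it called 86 of the 88 genes simulated with a 4-fold change, 56 of the 82 with a 2-fold change and 11 of the 2994 with none. In the simulation few genes were changed, as many up as down, and counts were drawn around the blood means. In the data 60.0% of the tested genes were called, so the simulated rates need not hold there. Promoters come from RefSeq (GRCm38.p6) and gene positions from GENCODE M21. Positions of overlapping genes matter where strand is unknown: Irf9 overlaps Rnf31, Irf7 Phrf1, Rtp4 Masp1, Slfn5 Slfn5os and Ifi47 Olfr56, so their counts are uncertain. Intervals on UMI counts cover counting error only.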

Additional observations from a re-analysis of the deposited data

How the results depend on the processing

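Across the 17 alternatives no called member changed direction. All 8 members that fell, and Isg15 and Rsad2, kept their calls in each. The number of members that rose was 5, and 3 with DESeq2, 3 with a top hashtag of at least 90%, 2 with at least 300 genes per cell, and 3 to 5 when 1 replicate was left out, with 3 without tumor mouse 2. Isg20, Slfn2 and Ifi47 lost their calls in 6 of 17, 5 of 17 and 6 of 9 alternatives, and Gbp3, Slfn4, Slfn5, Oasl1, Bst2 or Ifit2 gained one in some. Of the further pathway genes, 7 rose, and 11 without the cells with granule markers, an alternative chosen after seeing the data. Same-numbered tumor and blood samples did not deviate together (correlations 0.0226, 0.00893 and −0.0228). Whether the numbers pair the mice is not known. With a replicate block 3 members rose and 8 fell. The share of core UMIs in the top 5% of cells ran from 53.8% to 59.6% in tumor and from 29.2% to 31.6% in blood. Depth limits the 14 members below the count filter, and most of the tumor UMIs come from mouse 2.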
